A study of Xenopus laevis with 12 samples.

Results

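The second of the barhl1 morpholinos, called MO2 here, was compared with the control morpholino in rhombomere 1 of Xenopus laevis tadpoles. The comparison uses 8 of the 12 libraries of the study, chosen by their titles: 4 from tadpoles that received MOBarHl1_2 and 4 from tadpoles that received the control morpholino. The 4 libraries of the other barhl1 morpholino were left out of the comparison. All tadpoles were at stage 41 per the sample labels, while the design text gives stage 42, and all carry the genotype label Xenla9.2. Per the design text, the morpholino was injected into the 2 dorsal blastomeres of embryos at the 4-cell stage, and each replicate pooled 3 rhombomeres. The controls were thus injected too and differ from the MO2 tadpoles in the oligonucleotide. The design text gives 3 replicates per condition and the labels 4 samples per group, and nothing ties a sample to a clutch or an animal, so p-values measure the spread between these samples only.

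Morpholinos are antisense oligonucleotides that bind an RNA and block its translation or splicing without cutting it, so the level of the target RNA need not fall. Rhombomere 1 is the anterior hindbrain segment whose dorsal edge, the upper rhombic lip, gives rise to the glutamatergic neurons of the cerebellum, among them the granule cells. The proneural factor Atoh1 marks the progenitors of the rhombic lip, and the homeodomain factor Barhl1 is expressed as their progeny leave it. The submitters describe Barhl1 as a target of Atoh1 and as an inhibitor of T-cell factors, the DNA-binding partners of beta-catenin in Wnt signalling. The comparison addresses which transcripts depend on Barhl1 in this tissue. The deposited files list 44478 gene IDs without gene names, and none could be paired with barhl1, with markers of the rhombic lip or with markers of other tissues. The knockdown, the dissected tissue and any admixture of neighbouring tissue could therefore not be checked against marker genes, and the results are given for IDs and for classes of IDs. In dissected tissue, fewer cells of a type and less RNA per cell cannot be told apart.

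Total counts ran from 23278184 to 29433422 per library. The mean total was 2306201 counts higher with MO2 than in the controls, and an exact permutation test of the difference gave p = 0.143 (two-sided, 4 against 4, smallest possible p 0.0286). Without control replicate 1 the difference was 1489360 counts. None of 5 such library measures passed, the lowest Benjamini-Hochberg adjusted p being 0.357. No pair of libraries was a copy within sampling noise, since chi-square per degree of freedom was 5.33 or more within the groups and 3.68 or more across them. The lowest value of all was that of control replicate 1 with MO2 replicate 1. Whether these or other samples were exchanged or mixed was not tested and cannot be checked against the targeted gene, so every result below takes the labels as given.

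At an unadjusted p, MO2 libraries differed from the controls at many IDs by a small amount, and no ID passed the adjusted threshold. Of 26158 IDs tested, 0 passed an adjusted p of 0.05 (0% of those tested, edgeR quasi-likelihood test, Benjamini-Hochberg), the lowest adjusted p being 0.140. At an unadjusted p under 0.05 there were 5308 IDs, 20.3% of those tested, of which 2775 (10.6%) were higher and 2533 (9.68%) lower with MO2. Their median log2 fold change was 0.31 among the higher and -0.35 among the lower IDs, and 17.6% of them differed by 1.5-fold or more. At 2000 IDs (7.65%) the values of both groups did not overlap, with MO2 above the controls at 1074 (4.11%) and below them at 926 (3.54%). DESeq2 called 1342 IDs (5.13% of those tested) at an adjusted p of 0.05, 779 higher and 563 lower. It gave an adjusted p to 13986 IDs and left 12172 without one. Without control replicate 1, edgeR called 2667 of 26553 IDs (10%), and without MO2 replicate 1 it called 40. With all 12 libraries in the fit it called 3 of 26712 (0.0112%). The share at an unadjusted p under 0.05 was 9.58% with only MO2 replicates 1 and 2 against the controls. With only replicates 3 and 4 it was 27.9%. Control replicate 1 and these MO2 pairs were singled out in these data. The calls without that control and the shares for the pairs are therefore a description and no support.

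The IDs shown individually are those with the smallest p in each direction among IDs with a mean of at least 2 CPM, the TMM-scaled read count relative to library size. They were chosen by these values, so the separation of their groups is a description. The files give no name for them, and what their products do is unknown here.

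XBXL10_1g7225 was at 6.29, 4.74, 3.48 and 5.31 CPM in control replicates 1 to 4 and at 9.47, 11.8, 9.90 and 10.8 CPM in MO2 replicates 1 to 4. All 4 MO2 libraries lay above all 4 controls, and the MO2 libraries were within 2.35 CPM of each other. Its log2 fold change was 1.09 (SE 0.17, edgeR adjusted p = 0.148), from 4.95 ± 1.17 to 10.5 ± 1.04 CPM (SD, n = 4 each). XBXL10_1g35344 was at 3.53, 2.12, 1.96 and 2.60 CPM in the controls and at 4.55, 9.10, 7.51 and 7.03 CPM with MO2. The groups did not overlap, but MO2 replicate 1 lay nearer to control replicate 1 than to the other MO2 libraries. Its log2 fold change was 1.47 (SE 0.24, edgeR adjusted p = 0.148), from 2.55 ± 0.707 to 7.05 ± 1.89 CPM.

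In the other direction, XBXL10_1g38847 had the smallest p of all IDs and stood at 11.5, 13.4, 16.1 and 14.9 CPM in control replicates 1 to 4. With MO2 it was at 8.31, 6.61, 5.99 and 6.07 CPM, below every control. Control replicate 1 was the lowest control and MO2 replicate 1 the highest MO2 library. The log2 fold change was -1.05 (SE 0.14, edgeR adjusted p = 0.140), from 14.0 ± 1.99 to 6.74 ± 1.08 CPM. XBXL10_1g31540 was at 8.70, 9.15, 10.3 and 6.40 CPM in the controls and at 4.32, 3.93, 2.91 and 3.45 CPM with MO2. Here control replicate 4 was the control nearest to MO2, and the groups again did not overlap. The log2 fold change was -1.24 (SE 0.17, edgeR adjusted p = 0.140). With only MO2 replicates 1 and 2 in the fit, the log2 fold changes of these 4 IDs were 1.11, 1.42, -0.90 and -1.07 in the order given, and with only replicates 3 and 4 they were 1.07, 1.51, -1.22 and -1.44.

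**Figure D1:**
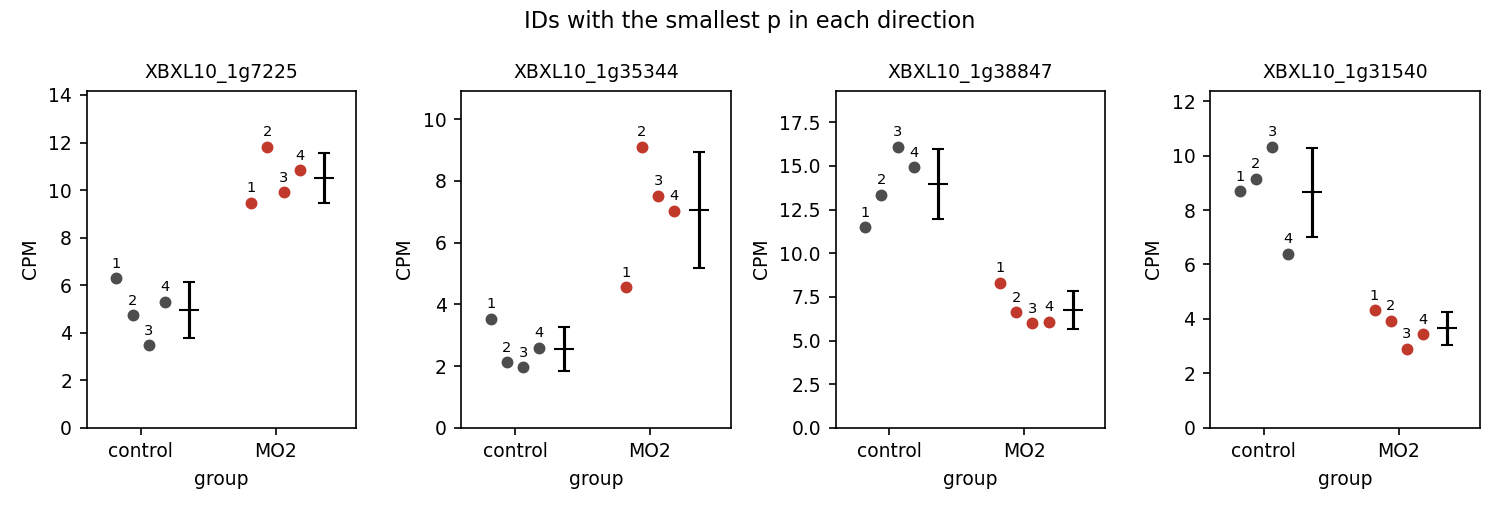
CPM (y axis) of the 2 higher and 2 lower IDs with the smallest p, by group; each point is 1 library with its replicate number, and the bar is the mean ± SD (n = 4). For each ID the MO2 points lie wholly above or wholly below the control points, with XBXL10_1g35344 in MO2 replicate 1 at 4.55 CPM against a highest control of 3.53.

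Effect size was then read by expression level, with IDs placed by their mean CPM over all 8 libraries, which does not favor either group. Fold changes were widest at low levels. Among 2517 IDs under 1 CPM the quartiles of the log2 fold changes ran from -0.41 to 0.30, among 3164 IDs of 1 to 3 CPM from -0.32 to 0.23, and among 7292 IDs of 10 to 30 CPM from -0.13 to 0.14. At 300 CPM or more the quartiles ran from -0.06 to 0.31. The median absolute log2 fold change was 0.35 under 1 CPM, 0.13 at 30 to 100 CPM and 0.22 at 300 CPM or more. The median standard error was 0.41 under 1 CPM, 0.28 at 1 to 3 CPM and 0.11 at 10 to 30 CPM. It was 0.090 at 30 to 100 CPM, 0.088 at 100 to 300 CPM and 0.096 at 300 CPM or more. IDs under 1 CPM had a median of 15 counts per library, so counting error alone is large there, whereas those of 300 CPM or more had a median of 12714 counts.

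Fold changes of 2 or more and small p-values were most frequent at opposite ends of the range. At least 2-fold differences numbered 605 in all (2.31% of IDs tested), 332 higher (1.27%) and 273 lower (1.04%). They made up 9.38% of IDs under 1 CPM, 6.35% at 1 to 3 CPM, 2.14% at 3 to 10 CPM and 0.521% at 10 to 30 CPM, and 0 of 409 IDs at 300 CPM or more. In contrast, the share at an unadjusted p under 0.05 was 9.30% under 1 CPM, 12.6% at 1 to 3, 21.7% at 10 to 30, 26.8% at 30 to 100, 32.4% at 100 to 300 and 54.0% at 300 CPM or more. The share of IDs whose groups did not overlap moved less, from 4.77% under 1 CPM to 8.68% at 10 to 30 and 7.33% at 300 CPM or more. Above 10 CPM, at least 94.6% of the IDs at an unadjusted p under 0.05 in each class differed by less than 1.5-fold. With only MO2 replicates 1 and 2 against the controls the gradient was not seen, the share lying between 8.16% and 10.9% in every class. With only replicates 3 and 4 the share ran from 13.8% to 58.2%. The pairs were formed because replicates 3 and 4 stood apart in these data, so these shares are a description and test nothing.

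**Figure D2:**
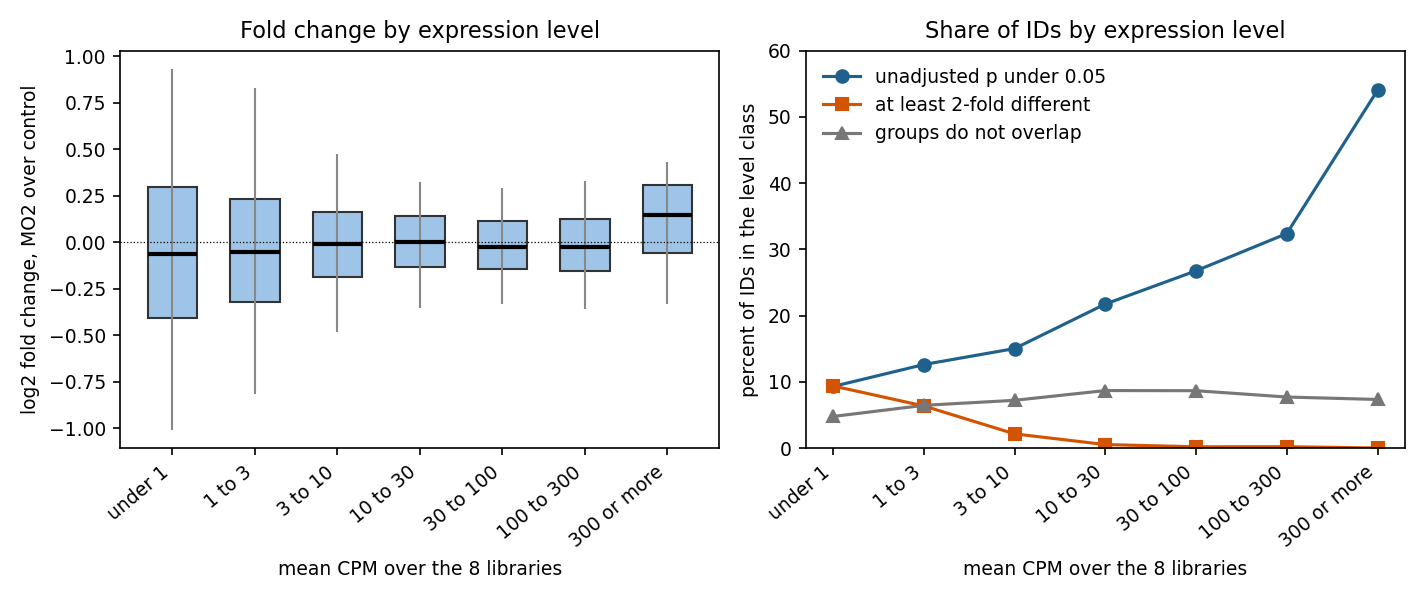
IDs grouped by mean CPM over the 8 libraries (x axis). On the left, the log2 fold change of MO2 over control (y axis), with the median as a black line, the quartiles as a box and the 5th to 95th percentile of IDs as a thin line; on the right, the percent of IDs in each class (y axis) at an unadjusted p under 0.05, at least 2-fold different, or with groups that do not overlap. The fold changes narrow up to 30 to 100 CPM and widen again above it, while the share at an unadjusted p under 0.05 climbs from 9.30% to 54.0%.

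The most abundant IDs leaned to one side by fold change and unadjusted p, but not by separation of the groups. Of the 409 IDs at 300 CPM or more, which held 27.6% of the tested counts, 175 were higher and 46 lower at an unadjusted p under 0.05, and their median log2 fold change was 0.15, against -0.01 over all IDs. In every other class the median lay between -0.06 and 0.00. Among the 409, MO2 lay wholly above the controls at 13 IDs and wholly below them at 17 (4.11% and 3.54% over all IDs tested). These 409 IDs took 28.5%, 27.0%, 29.7% and 29.0% of all counts in MO2 replicates 1 to 4 and 28.1%, 26.8%, 25.7% and 25.7% in control replicates 1 to 4. The groups overlapped, since control replicate 1 lay above MO2 replicate 2. The median log2 difference of these IDs from the control mean was 0.16, 0.08, 0.18 and 0.17 in MO2 replicates 1 to 4, and control replicate 1 was 0.17 above the other 3 controls. The control mean used for MO2 includes control replicate 1. Without that library in the fit, the median log2 fold change of these IDs was 0.21. Among them, 41 IDs were at an unadjusted p under 0.05 with only MO2 replicates 1 and 2 in the fit, 24 higher and 17 lower, and 263 without control replicate 1. Those libraries were singled out in these data, so both counts are a description. What the 409 IDs encode is not given by the files.

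Of the fold changes of 2 or more, a minority were carried by all 4 libraries of the group. Among the 332 higher IDs, all 4 MO2 libraries were at least 2-fold above the control mean (log2 CPM) at 66, 3 libraries at 95, 2 at 140 and 1 at 31. MO2 replicate 3 was among them at 294 IDs, replicate 4 at 259, replicate 2 at 187 and replicate 1 at 120. Among the 273 lower IDs, all 4 libraries were at least 2-fold below at 23, 3 at 77, 2 at 130 and 1 at 43, and here replicate 2 was among them most often, at 197 IDs, and replicate 1 least often, at 117. The groups did not overlap at 98 of the 332 and 66 of the 273 (4.11% higher and 3.54% lower over all IDs tested), which the choice by fold change favors. Most of these IDs had a mean under 3 CPM, 221 of the higher and 216 of the lower. The IDs were chosen by the fitted fold change, while libraries were counted on log2 CPM with a prior count of 2. That prior count narrows differences at low counts, and a fold change just past 2 often leaves some libraries under it. The split by number of libraries is therefore a description.

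The 4 MO2 libraries were unequally far from the controls. MO2 replicate 1 was at least 2-fold outside the range of all 4 controls at 77 IDs, 14 above and 63 below. MO2 replicate 2 was outside that range at 417 IDs, of which 293 were below, replicate 3 at 512, 258 above and 254 below, and replicate 4 at 461, 162 above and 299 below. For comparison, each control set against the 3 others, a narrower range that is easier to leave, was outside at 237 IDs for control replicate 1, at 317 for control replicate 3, and at fewer for the other two. Against ranges of 3 controls, with each control left out in turn, MO2 replicate 1 was outside at 103 to 264 IDs. Its lowest count was below that of every control, and its highest was below that of control replicate 3 only. MO2 replicates 2, 3 and 4 were outside at 464 to 718, 580 to 776 and 527 to 689, each above every control. The median absolute log2 difference from the control mean was 0.18, 0.15, 0.26 and 0.21 in MO2 replicates 1 to 4. Replicate 2 combined the smallest median with many outlying IDs. In every library the outlying IDs lay mainly at low levels. In MO2 replicate 2, 19.3% of IDs under 1 CPM and 0.497% at 30 to 100 CPM were 2-fold from the control mean. Under 1 CPM the share was 9.85%, 21.4% and 18.7% in MO2 replicates 1, 3 and 4. It was 11.4% to 17.1% in the controls, each set against the 3 others.

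**Figure D3:**
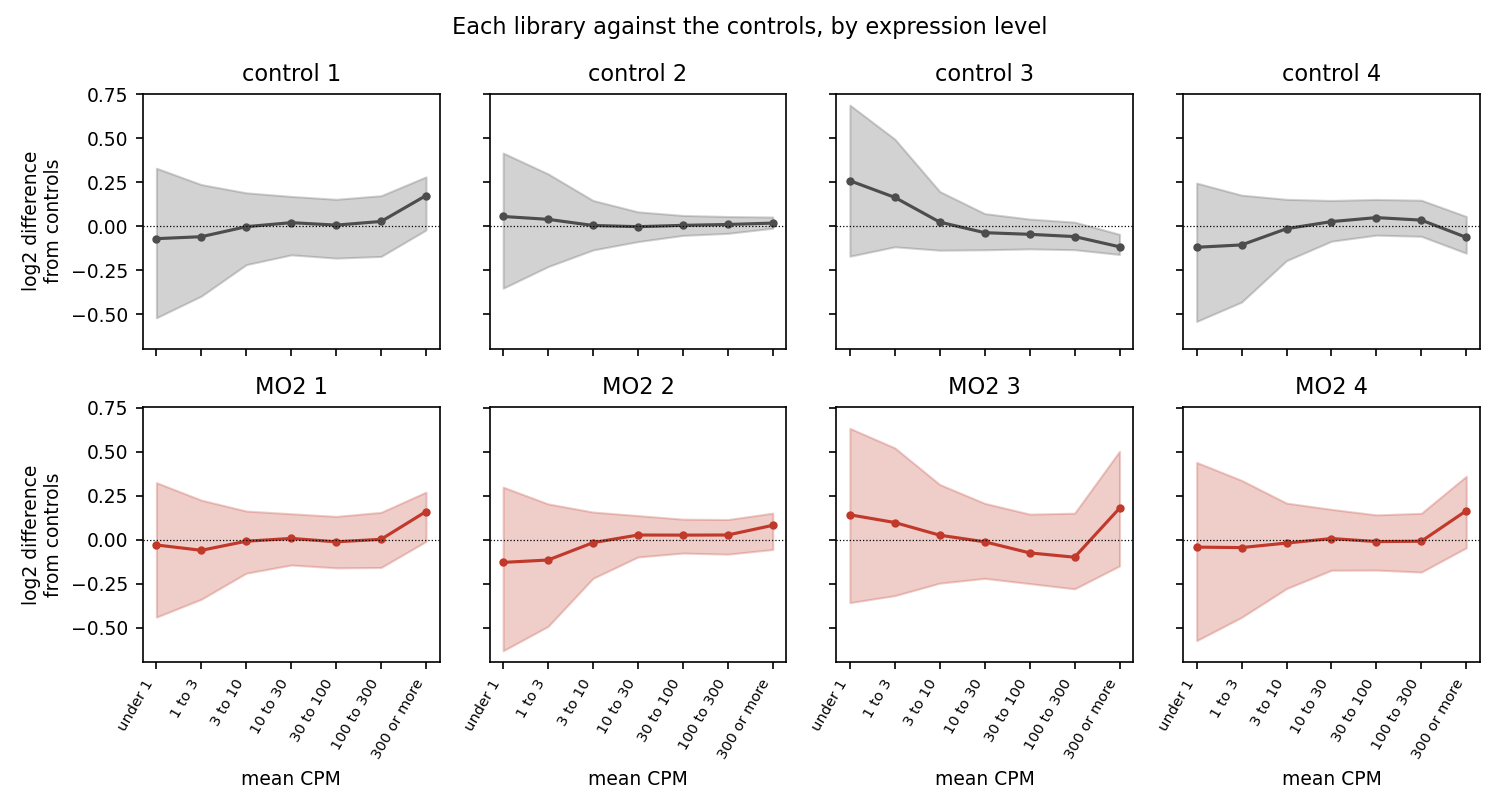
Median log2 difference (line) and quartiles over IDs (band) of each library from the controls (y axis), by class of mean CPM over the 8 libraries (x axis); controls are set against the mean of the 3 other controls and MO2 libraries against the mean of all 4. MO2 replicate 3 has the widest band above 10 CPM. At 300 CPM or more control replicate 1 is at 0.17 and the MO2 libraries are at 0.08 to 0.18. These references differ, since the control mean used for MO2 includes control replicate 1.

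Distances between pairs of libraries showed the same inequality. The root mean square log2 CPM difference was 0.388 to 0.527 among the 6 pairs of controls, 0.412 to 0.663 among the 6 pairs of MO2 libraries and 0.349 to 0.693 among the 16 pairs across groups. The closest pair of all 28 was control replicate 1 with MO2 replicate 1 (0.349), and the next was control replicates 2 and 4 (0.388). MO2 replicates 3 and 4 followed (0.412). What the likeness of control replicate 1 and MO2 replicate 1 contributes to the counts of calls and by library was not tested. MO2 replicate 3 was 0.566 from replicate 1 and 0.663 from replicate 2, and MO2 replicate 4 was 0.505 and 0.581 from them. MO2 replicates 1 and 2 were 0.446 apart, and replicate 2 was nearer still to control replicate 1 (0.434). Over IDs, the standard deviation among MO2 libraries exceeded that among controls at 56.5% of IDs.

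**Figure D4:**
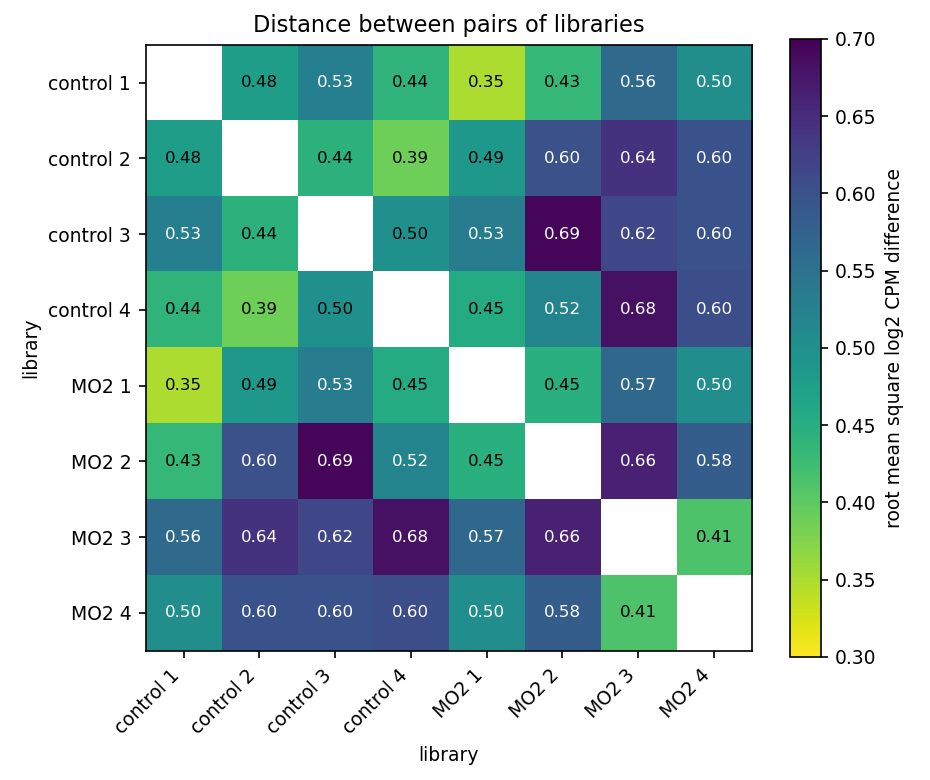
Root mean square log2 CPM difference over the 26158 tested IDs for every pair of the 8 libraries (both axes list the libraries, color and number give the distance). MO2 replicates 3 and 4 are 0.41 apart and 0.50 or more from every other library, while control replicate 1 and MO2 replicate 1 are 0.35 apart.

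The first principal component of the 8 libraries, with 34.2% of the variance, set MO2 replicates 3 and 4 (61.2 and 46.9) apart from the other 6 (-39.6 to -5.17). On the second, with 27.6%, MO2 replicate 2 was lowest at -56.9 and control replicate 3 highest at 49.9, with MO2 replicates 3 and 4 at 17.1 and 1.87. MO2 replicate 1 (-5.17 and -18.1) and control replicate 1 (-6.15 and -18.3) had nearly the same scores on both.

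Of the 5308 IDs at an unadjusted p under 0.05, MO2 replicate 3 lay above every control at 93.7% of the higher ones and below every control at 88.9% of the lower ones. For replicate 4 these shares were 85.7% and 79.2%, for replicate 1 75.0% and 66.4% and for replicate 2 54.9% and 56.6%. Control replicate 1 was the control nearest to MO2 at 78.8% of the higher and 76.5% of the lower IDs, while each other control was so at 5.69% to 9.66%. These IDs were chosen on the same libraries, so the shares describe which libraries carried the difference and test nothing.

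MO2 replicates 3 and 4 were set beside replicates 1 and 2 because they stood apart in these data, so the values that follow are a description without a test. Both were at least 2-fold above replicates 1 and 2 at 273 IDs (1.04% of those tested) and at least 2-fold below them at 159 (0.608%). Low levels dominated, with 189 of the 273 and 115 of the 159 under 3 CPM and 30 and 11 at 10 CPM or more. At 300 CPM or more there were none in either direction among the 409 IDs. Of the 273 IDs, 46 were at an unadjusted p under 0.05 in the comparison of MO2 with control (16.8%, against 20.3% of all IDs), and of the 159, 12 were (7.55%). Over all IDs tested this share was 9.30% under 1 CPM and 12.6% at 1 to 3 CPM, where most of both sets lay. Choosing IDs by a gap among MO2 libraries also widens the spread used by the test, so nothing is read from these shares.

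The controls took different positions on both sets. Their values had no part in the comparison of the MO2 libraries, but they counted in the filter on low counts, and low-level IDs that were low in MO2 replicates 3 and 4 could pass it only where other libraries were higher. On the 159 low IDs the control mean was nearer to MO2 replicates 1 and 2 at 153 and nearer to replicates 3 and 4 at 6, and without the filter, an alternative chosen after seeing the data, at 237 and 41 of 278. Median levels there were 1.59, 1.80, 1.48 and 1.69 CPM in control replicates 1 to 4, 1.73 and 1.78 CPM in MO2 replicates 1 and 2, and 0.312 and 0.345 CPM in replicates 3 and 4. Both of the latter lay below 6 libraries at similar levels, which the filter favors. Without it, median levels of the low IDs were 0.452, 0.528, 0.525 and 0.519 CPM in control replicates 1 to 4. They were 0.583 and 0.638 CPM in MO2 replicates 1 and 2, and 0.0696 and 0.0697 CPM in replicates 3 and 4. On the 273 high IDs the control mean was nearer to replicates 1 and 2 at 163 and nearer to replicates 3 and 4 at 110, and without the filter at 409 and 176 of 585. Median levels there were 0.861, 1.39, 1.89 and 1.02 CPM in control replicates 1 to 4, 0.677 and 0.567 CPM in MO2 replicates 1 and 2, and 3.15 and 2.76 CPM in replicates 3 and 4. The controls were in between and unequal, and control replicate 3 was the highest of them at 171 of the 273. The filter counted here too. Without it, median levels of the high IDs were 0.258, 0.325, 0.508 and 0.223 CPM in control replicates 1 to 4. They were 0.188 and 0.150 CPM in MO2 replicates 1 and 2, and 1.18 and 0.941 CPM in replicates 3 and 4.

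**Figure D5:**
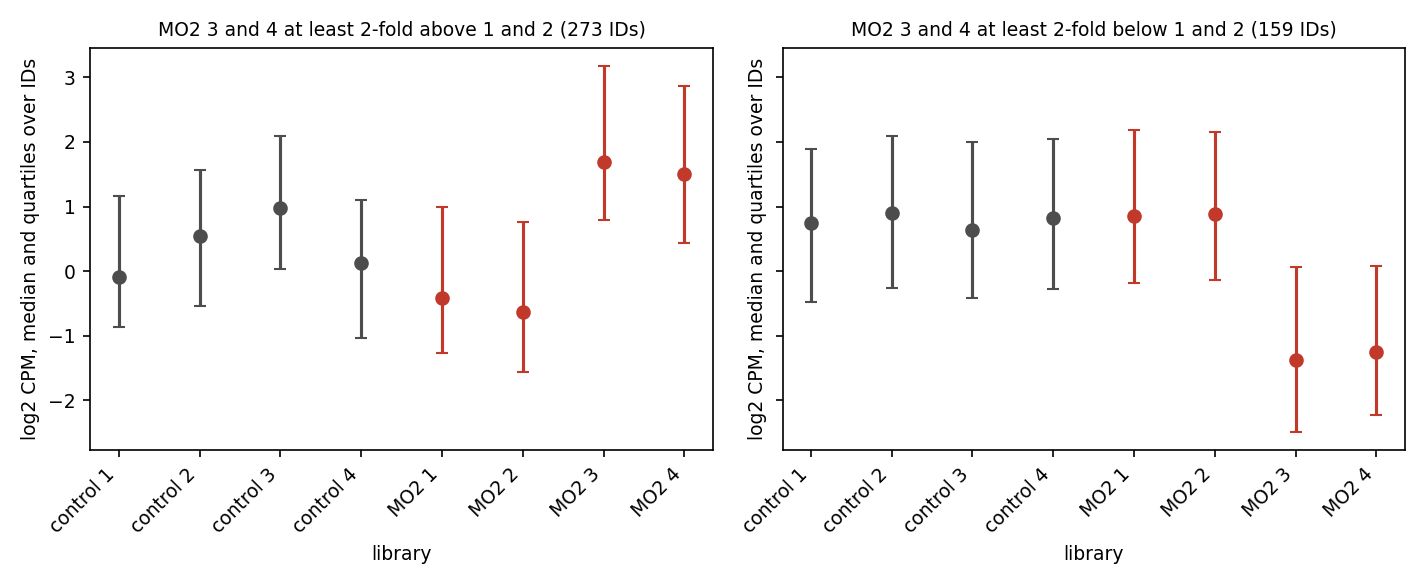
Level in each library (x axis) of the 273 IDs at which MO2 replicates 3 and 4 were both at least 2-fold above replicates 1 and 2 (left) and the 159 at which they were below (right); points are the median log2 CPM over IDs and bars the quartiles, with controls in grey and MO2 in red. The MO2 points are separated by the choice of the IDs, and the control points, which counted in the filter on low counts, lie level with MO2 replicates 1 and 2 on the right and between both pairs on the left.

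Replicates 3 and 4 were together at least 2-fold above all 6 other libraries at 60 IDs (0.229%) and at least 2-fold below all 6 at 77 (0.294%). The same measure for replicates 1 and 2 gave 0 IDs above and 19 below (0.0726%). MO2 and control did not overlap at 5 of the 60 and 4 of the 77 (4.11% higher and 3.54% lower over all IDs tested), and nothing is read from these counts.

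The IDs with the widest gap in each direction were XBXL10_1g42200 and XBXL10_1g8987, singled out after their values were seen. XBXL10_1g42200 was at 3.72 and 1.89 CPM in MO2 replicates 1 and 2 and at 115 and 33.2 CPM in replicates 3 and 4, and it varied among the controls too, at 6.85, 13.4, 16.5 and 7.23 CPM. Its log2 fold change of 1.80 had an SE of 1.25 (edgeR adjusted p = 0.458), since replicates 1 and 2 lay below the controls and replicates 3 and 4 above them. XBXL10_1g8987 had 0 counts in MO2 replicate 3 and 1 count in replicate 4, where 3 counts would be 0.104 and 0.103 CPM. It was at 16.5 and 41.9 CPM in MO2 replicates 1 and 2 and at 7.84, 38.9, 29.4 and 28.3 CPM in the controls. Its log2 fold change was -0.85 (SE 1.44, edgeR adjusted p = 0.774).

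Such a near absence was rare. Replicates 3 and 4 together had at most 3 counts at 5 IDs that were at 0.5 CPM or more in each of the 6 other libraries, and replicates 1 and 2 together had so few at 0 such IDs. Apart from XBXL10_1g8987, the 5 had means of 1.14 to 2.66 CPM over the 6 other libraries, and 3 of them had 0 counts in both replicates.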

How the data were processed

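Each deposited file holds the raw counts of 1 library per gene ID. Per the submitters' processing notes, the authors counted reads with featureCounts 2.0.1, and per the file headers the reads had been trimmed. Libraries were poly(A)-based and stranded, per the labels' protocols and the design text. Aligner, annotation, genome build and strand setting are not given in the sources used, so homeologous, overlapping and antisense genes may share reads. Of 44478 IDs, 0 matched the RefSeq table (Xenopus_laevis_v10.1, 44456 genes) exactly, and 1 did so once a prefix was removed. No promoter, protein or other sequence was therefore printed.

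The 8 MO2 and control libraries were fitted in edgeR 4.0.16 (R 4.3.3): filterByExpr, TMM scaling, robust quasi-likelihood, 6 residual degrees of freedom. The tested IDs held 99.9% of the counts, and the common biological coefficient of variation was 0.172. Tests were two-sided with Benjamini-Hochberg adjustment over 26158 IDs, and standard errors came from the fold change and test statistic. CPM is TMM-scaled, and log2 CPM has a prior count of 2. On simulated data (25891 IDs, 200 changed, all at 1 CPM or more), MO2 against control found 83% of the 2-fold and 43% of the 1.5-fold changes. It also called 12 IDs that had not been changed. In the simulation 4.69% of unchanged IDs were at an unadjusted p under 0.05, against 20.3% of all IDs tested in the data. How many changes of these sizes the data could reveal was therefore not tested. IDs named were the 2 per direction with the smallest p at a mean of at least 2 CPM. The comparison, the split of MO2 and all rules were chosen with earlier results of these data known. Alternatives were DESeq2 1.42.0, limma 3.58.1 (voom), other scaling, filters and prior counts, all 12 libraries in the fit, a replicate block, and leaving out libraries. Leaving out controls in the counts by library was added after seeing the data, as were leaving out libraries in the library measures and the control positions without a filter.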

Additional observations from a re-analysis of the deposited data

How the results depend on the processing

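The number of IDs at an adjusted p of 0.05, 0 as reported, was also 0 with DESeq2 size factors, the stricter filter, limma-voom and the replicate block, and was 3 without a filter on low counts, 3 with all 12 libraries in the fit and 1342 with the DESeq2 test. Leaving out 1 library gave 0 to 2667, with 2667 without control replicate 1, 40 without MO2 replicate 1 and 0 without each of the others. It was 0 with MO2 replicates 1 and 2 only and 2755 with replicates 3 and 4 only. That pair was singled out in these data for standing apart, as was control replicate 1 for its likeness to MO2, so calls made by leaving libraries out are no support. DESeq2 and edgeR without control replicate 1 shared 1140 IDs, 84.9% of the former and 42.7% of the latter list.

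IDs at an unadjusted p under 0.05 numbered 3237 to 7572 with 1 library left out (lowest without control replicate 4, then 3325 without control replicate 3) and 2560 with MO2 replicates 1 and 2 only, against 5308. Those under 1 CPM numbered 154 to 246 with 1 library left out (154 without control replicate 2), against 234, and those at 300 CPM or more 152 to 263, against 221, with 41 for MO2 replicates 1 and 2 only. IDs at least 2-fold different, 605 as reported, were 641 to 933 with 1 library left out (933 without MO2 replicate 1), 5382 without a filter, 316 with the stricter filter, 1066 with MO2 replicates 1 and 2 only and 1608 with 3 and 4 only. Under 1 CPM, 185 IDs had group means 2-fold apart in log2 CPM, and 91 with a prior count of 5.

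IDs outside all controls in MO2 replicates 1 to 4 (77, 417, 512 and 461) were 286, 804, 1096 and 934 without a filter and 29, 256, 321 and 281 with the stricter one, which test more and fewer IDs, and 34 for replicate 1 with a prior count of 5. With 1 control left out they were 103 to 264, 464 to 718, 580 to 776 and 527 to 689, each highest without control replicate 1; replicate 1 had 153 without control replicate 3 and also over 1.5 times its count without control replicate 4. The 273 and 159 IDs that set MO2 replicates 3 and 4 apart were 585 and 278 without a filter and 170 and 101 with the stricter one. Where no construction is named, the cause was not tested. Other alternatives stayed within 1.5 times of these counts. The 4 named IDs kept direction in all 68 alternatives, which tests nothing, since they were chosen by these values and their groups lie apart. Adjusted p was 0.00151 to 0.461, passing in 18, mostly with libraries left out. DESeq2 gave none.

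With a replicate block, 4786 IDs were at an unadjusted p under 0.05. Deviations of same-numbered libraries correlated at -0.04, -0.05, 0.32 and -0.14 (numbers 1 to 4), within the -0.41 to 0.34 of other pairs. They cannot decide pairing by number.

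With 1 library left out, the 5 library measures kept their direction, and the lowest unadjusted exact permutation p was 0.0571. The MO2 excess was 1489360 to 3290346 in total count, 65.5 to 387.6 in IDs with a count (193.8 as reported) and 0.388 to 0.670 percentage points in the share of the 10 most abundant IDs (0.498).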

Other observations

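Outside the IDs tested, 17 had a count in all 4 MO2 libraries and 0 in all 4 controls, with a median of 12 counts in total. In the other direction, 6 of the 44478 had a count in all 4 controls and 0 in all 4 MO2 libraries. Their totals had a median of 7 and a maximum of 15 counts. None of these passed the filter on low counts, so they were not tested, and at totals this low a difference in level could not be shown for most of them.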
